A study of Mus musculus with 12 samples.

Results

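The genes described here are 9 enzymes and regulators of glycogen metabolism, chosen by symbol: Gyg, Gys1, Gbe1, Ppp1r3c, Ugp2, Pgm1, Pgm2, Pygl and Pygb. All 9 were found among the 24421 gene symbols of each count table. The list was put together with the differences between Etl4 knockout (KO) and wild-type (WT) cells in these data already known. KO over WT values of these 9 genes are therefore given as a description, with the count past the threshold but without p-values other than those of calls that another setting did not keep, and nothing is read from those counts.

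The study measured mRNA by RNA-seq in mouse embryonic stem cells (ESCs) that are haploid and androgenetic, having only a father's chromosomes, on a C57BL/6 background. Etl4 was studied for its part in keeping such cells haploid. The parental line OdG gave 2 libraries of Etl4 KO line 1, 2 libraries of Etl4 KO line 2 and 2 WT libraries. The parental line EG1 gave 3 libraries of 1 Etl4 KO line and 3 WT libraries. The labels describe neither the edit nor how replicates were grown, so errors and p-values cover no more than library-to-library spread, which may be technical.

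Glycogen is the branched glucose polymer in which animal cells store sugar. It is built from UDP-glucose on a glycogenin primer by glycogen synthase and the branching enzyme, and taken down by phosphorylases as glucose 1-phosphate, which phosphoglucomutase converts to glucose 6-phosphate for glycolysis. Protein phosphatase 1, held on the particle by targeting subunits, switches the synthase on and the phosphorylase off. In many cell types hypoxia raises several of these genes along with glycolysis.

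Each library held 16110028 to 18774032 counts in the OdG table and 17421260 to 19706599 in the EG1 table, and every one of the 9 genes had at least 51 counts in each OdG library and 31 in each EG1 library, so all passed the filter on low counts. Etl4 itself averaged 99.1 CPM (counts per 1000000, scaled within a table) in line 1, 111.9 in line 2 and 208.1 in OdG WT, and 132.2 in EG1 KO and 263.1 in EG1 WT, so its transcript was reduced but present in KO libraries. The OdG WT libraries stood apart from all others at 2 neighbouring genes, Guf1 and Gnpda2, with 6 and 1 counts over both WT libraries against 1617 and 598 in line 1 and 1518 and 771 in line 2. Every OdG KO value rests on those WT libraries. All 6 ESC markers were present in every group, with summed levels of 4790 to 4930 CPM in OdG KO, 3800 to 3930 in OdG WT, 6170 to 6360 in EG1 KO and 6200 to 6320 in EG1 WT, and 6 of 6 were higher in OdG KO and 1 of 6 in EG1 KO by the edgeR threshold. The 8 fibroblast markers summed to 30.5 to 32.5 CPM in line 1, 16.3 to 17.8 in line 2 and 44.1 to 48.9 in OdG WT, with Pdgfrb lower in both OdG KO lines and Col1a1 lower in line 2 alone (12.1 CPM in line 1, 2.73 in line 2 and 11 in OdG WT), and to 12.7 to 14.9 in EG1 KO and 11.4 to 13 in EG1 WT, with Col1a1 higher in EG1 KO. Of these, Lum, Postn and Col3a1 had 0 counts in line 1, and Lum, Dcn and Postn had 0 in EG1 KO and EG1 WT, with Col3a1 also at 0 in EG1 KO. The 6 primitive endoderm markers summed to 6.8 to 8.06 CPM in line 1, 9.77 to 10.7 in line 2 and 12.4 to 12.7 in OdG WT, against 7 to 8.15 in EG1 KO and 7.59 to 8.46 in EG1 WT, and 2 of them, Gata6 and Pdgfra, were lower in OdG KO. The 6 trophoblast markers summed to 305 to 306 CPM in line 1, 268 to 283 in line 2 and 216 to 221 in OdG WT, and to 94.9 to 96.1 in EG1 KO and 92.4 to 97.4 in EG1 WT. Of the 5 tested in OdG KO, Tfap2c and Cdx2 were higher and Krt8 and Hand1 lower, and of the 4 tested in EG1 KO 0 passed by edgeR. Of all genes tested, 29.4% passed as higher and 30.5% as lower in OdG KO, and 7.66% passed in EG1 KO. Cdx2 had 111.2 CPM in line 1, 85.2 in line 2 and 83.5 in OdG WT, and passed as higher in line 1 alone. Tfap2c had 10.4 CPM in line 1, 112.8 in line 2 and 0.382 in OdG WT, and 85.5 in EG1 KO and 86.8 in EG1 WT. Krt8 had 119.1 CPM in line 1, 48.6 in line 2 and 89 in OdG WT, so it was higher in line 1 and lower in line 2, as was Krt18 (64.4, 28.2 and 44.4 CPM in line 1, line 2 and OdG WT). The part of these differences in the values below was not tested.

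The symbols Pgm1 and Pgm2 have changed places in mouse nomenclature. In the deposited tables the rows next to Pgm2 (20 of 20) were genes of chromosome 4 and those next to Pgm1 (20 of 20) were genes of chromosome 5. By these neighbours Pgm2 of the tables is the gene that RefSeq (GRCm38.p6) calls Pgm1 (chromosome 4, 99929451 to 99987294), the counterpart of human PGM1, the main phosphoglucomutase. Pgm1 of the tables is the gene that RefSeq calls Pgm2 (chromosome 5, 64092919 to 64128355), whose human counterpart acts mainly on phosphopentoses. The tables' symbols are used throughout. The other genes lie on chromosome 3 (Gyg, 20122083 to 20155117), 7 (Gys1, 45434839 to 45456617), 16 (Gbe1, 70313949 to 70569720), 19 (Ppp1r3c, 36731731 to 36736604), 11 (Ugp2, 21321126 to 21371267), 12 (Pygl, 70190815 to 70227683) and 2 (Pygb, 150786796 to 150831748).

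The promoters printed are those of the 4 genes that passed the threshold as lower in both OdG KO and EG1 KO. The EG1 calls of Gys1 and Pygl were lost under some other settings, given with their levels below. The size of the drop differed between OdG and EG1 for Pygl, Pgm2 and Gys1, and for Ppp1r3c the difference did not pass. Each is the 250 bases upstream of the RefSeq start in GRCm38.p6, 5′ to 3′ on the gene's strand. They are Ppp1r3c (chr19:36736605-36736854, minus strand), Pygl (chr12:70227684-70227933, minus strand), Pgm2 (chr4:99929201-99929450, plus strand) and Gys1 (chr7:45434589-45434838, plus strand). Capitals mark ACGTG or GCGTG, the core letters bound by hypoxia-inducible factors, on either strand (a match on the other strand reads CACGT or CACGC).
Ppp1r3c: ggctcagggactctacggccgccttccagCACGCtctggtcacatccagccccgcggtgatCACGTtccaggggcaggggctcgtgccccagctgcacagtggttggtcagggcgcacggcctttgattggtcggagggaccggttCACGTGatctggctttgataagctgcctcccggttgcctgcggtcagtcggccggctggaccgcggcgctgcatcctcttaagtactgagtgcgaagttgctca
Pygl: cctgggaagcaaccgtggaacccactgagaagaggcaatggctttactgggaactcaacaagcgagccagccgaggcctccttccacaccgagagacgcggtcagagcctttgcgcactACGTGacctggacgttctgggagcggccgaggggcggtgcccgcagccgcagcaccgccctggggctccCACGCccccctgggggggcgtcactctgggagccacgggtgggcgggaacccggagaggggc
Pgm2: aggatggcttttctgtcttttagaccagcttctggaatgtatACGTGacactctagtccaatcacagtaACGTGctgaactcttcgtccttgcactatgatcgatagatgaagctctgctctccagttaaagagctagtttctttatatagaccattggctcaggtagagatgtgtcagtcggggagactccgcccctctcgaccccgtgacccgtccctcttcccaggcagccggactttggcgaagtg
Gys1: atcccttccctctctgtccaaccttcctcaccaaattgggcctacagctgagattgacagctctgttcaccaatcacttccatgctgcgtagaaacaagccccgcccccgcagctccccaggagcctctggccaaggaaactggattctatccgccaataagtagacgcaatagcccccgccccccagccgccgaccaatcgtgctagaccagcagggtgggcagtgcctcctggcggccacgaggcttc

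These letters occurred in 7 of the 10 promoter windows of the 9 genes, each from a different gene. They occurred in 38.6% of all 32817 RefSeq promoter windows of the same length. Ppp1r3c held 4 matches, 2 of which overlap in a single CACGTG, a palindrome found in 6.02% of all windows. Pygl and Pgm2 held 2 matches each, and Gys1 and Gbe1 held 0. Ugp2, whose level hardly differed between KO and WT, held 6 in the first of its 2 windows, Pygb held 2, and Gyg and Pgm1 held 1 each. GC content of the 10 windows ran from 48.8% to 73.6%, against a median of 52.4% over all windows. A match is a description of the letters and not evidence of a bound site.

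Of the genes of glycogen synthesis, Gyg, Gys1, Gbe1 and Ppp1r3c were lower in OdG KO than in OdG WT. Ugp2, described further below, did not pass. Gyg, the self-glucosylating primer protein, had 12.4 and 12.7 CPM in OdG KO line 1, 10.5 and 9.44 CPM in line 2 and 17 and 17.3 CPM in OdG WT. All 4 KO libraries lay below both WT libraries, and line 2 was the lowest. In EG1 it had 13.7, 14.1 and 14.7 CPM in KO and 16.6, 13.3 and 15 CPM in WT, so that the groups overlapped. The log2 fold change was -0.62 ± 0.088 (standard error, SE) in OdG KO and -0.07 ± 0.091 in EG1 KO. In cultures measured as a whole, fewer cells expressing a gene and less RNA per cell cannot be told apart.

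Gys1 encodes the widely expressed muscle-type glycogen synthase, which lengthens the chains. It stood at 78.9 and 77.8 CPM in line 1 and 78.7 and 74.6 CPM in line 2, against 149.7 and 142.7 CPM in OdG WT. The KO lines were alike and both far below WT, at 53% of the WT level (log2 -0.92 ± 0.037). EG1 KO libraries had 75.6, 71.5 and 69.4 CPM and EG1 WT libraries 84.3, 77.6 and 81.2 CPM. The EG1 groups did not overlap, but the difference was small (log2 -0.17 ± 0.047), and its call was lost without any of 4 libraries (EG1 WT replicate 1 or 3, EG1 KO replicate 2 or 3, adjusted p = 0.06 to 0.16 by edgeR's quasi-likelihood test). With all libraries kept, DESeq2 did not make it (adjusted p = 0.075), nor did it pass a threshold of 0.01 in edgeR.

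Gbe1, the branching enzyme, had the lowest level per kilobase of the list in OdG WT. Its libraries held 4.52 and 4.51 CPM in line 1, 6.04 and 4.49 CPM in line 2 and 13.7 and 13.7 CPM in OdG WT. Both KO lines were well below WT (log2 -1.50 ± 0.12, or 35.5% of WT). In EG1 the level was low in both genotypes, at 2.85, 3.07 and 3.06 CPM in KO and 2.92, 1.74 and 2.63 CPM in WT. The EG1 groups overlapped (log2 0.30 ± 0.21).

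Ppp1r3c, also known as PTG, brings protein phosphatase 1 to glycogen and so favours synthesis. Line 1 libraries had 2.99 and 3.24 CPM, line 2 libraries 5.98 and 4.94 CPM and OdG WT libraries 8.29 and 8.19 CPM. In EG1 it had 2.68, 2.44 and 2.78 CPM in KO and 4.78, 5.21 and 5.2 CPM in WT. KO libraries lay below the WT libraries of their own table in both parental lines. It was the gene of the list whose change was closest in size between the parents among those past the threshold in both, with log2 -1.0 ± 0.13 in OdG KO and -0.94 ± 0.17 in EG1 KO. In line 2 alone its log2 fold change was -0.60 ± 0.15, a call that DESeq2 did not make (adjusted p = 0.056).

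**Figure D1:**
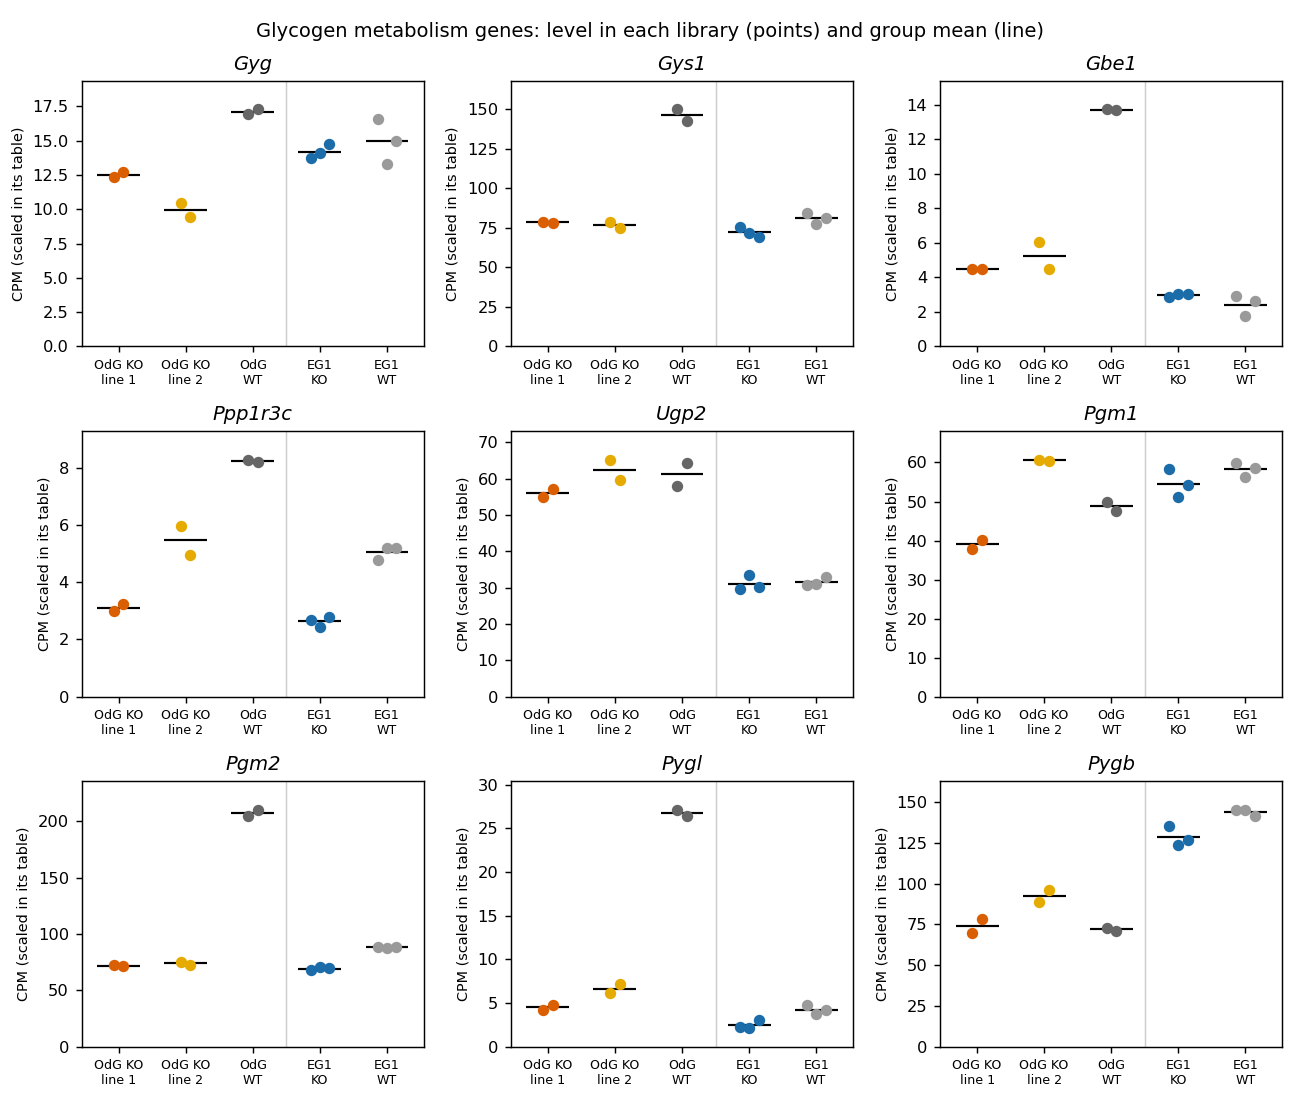
Level of each of the 9 glycogen genes in CPM, scaled within each table, with a point for each library, a line at the group mean and the vertical axis starting at 0. Gys1, Gbe1, Pgm2 and Pygl were far higher in OdG WT than in all 4 OdG KO libraries, while EG1 KO and EG1 WT lay closer together, and Ugp2 overlapped between KO and WT in EG1 and between line 2 and WT in OdG.

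Of the genes that supply glucose units, Pgm2 was lower in both KO comparisons and Ugp2 passed in neither. Ugp2 makes UDP-glucose, the donor for the synthase, from glucose 1-phosphate. Its levels were 54.9 and 57.3 CPM in line 1, 65.2 and 59.6 CPM in line 2 and 58.1 and 64.2 CPM in OdG WT, and 29.8, 33.5 and 30.1 CPM in EG1 KO against 30.8, 31.1 and 32.8 CPM in EG1 WT. Neither comparison passed the threshold (log2 -0.05 ± 0.054 in OdG KO and -0.02 ± 0.065 in EG1 KO). With upper quartile scaling, line 1 passed as lower (log2 -0.19, adjusted p = 0.018 by edgeR).

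Pgm2, the phosphoglucomutase that links glucose 1-phosphate and glucose 6-phosphate, was the most abundant gene of the list per kilobase in both OdG KO lines and in OdG WT. It had 72.5 and 71.2 CPM in line 1, 75.2 and 72.6 CPM in line 2 and 204.9 and 210.2 CPM in OdG WT. In EG1 it had 67.7, 70.4 and 69.7 CPM in KO and 88.9, 87.9 and 88.1 CPM in WT. The groups did not overlap in either table. The log2 fold change was -1.51 ± 0.034 in OdG KO, 35.1% of WT, and -0.35 ± 0.044 in EG1 KO, 78.5% of WT. Pgm1, the phosphopentomutase relative, went apart in the OdG lines. It had 37.8 and 40.2 CPM in line 1 and 60.7 and 60.4 CPM in line 2, with OdG WT between them at 50 and 47.5 CPM. EG1 libraries had 58.2, 51.2 and 54.3 CPM in KO and 59.8, 56.3 and 58.5 CPM in WT, overlapping ranges (log2 -0.09 ± 0.053).

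The phosphorylases release glucose 1-phosphate. Pygl, the liver form, had 4.24 and 4.83 CPM in line 1, 6.1 and 7.13 CPM in line 2 and 27.1 and 26.4 CPM in OdG WT. All 4 KO libraries were far below both WT libraries, the furthest drop of the 9 genes (log2 -2.29 ± 0.094, 20.5% of WT). Of all genes tested, 0.416% had a lower OdG KO log2 fold change, and Pygl was listed with KO over WT differences known. In EG1 it had 2.22, 2.1 and 3.06 CPM in KO and 4.72, 3.7 and 4.19 CPM in WT, and the groups did not overlap (log2 -0.77 ± 0.19). That call was lost without EG1 WT replicate 1 (adjusted p = 0.056 by edgeR).

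Pygb, the brain form, moved the other way in OdG. It had 69.8 and 78.2 CPM in line 1, 88.7 and 95.9 CPM in line 2 and 72.9 and 71.1 CPM in OdG WT. Line 2 was above WT and line 1 overlapped it, and as the mean of both lines the log2 fold change was 0.20 ± 0.049, a call lost when both KO lines were pooled into 1 group (adjusted p = 0.24 by edgeR). EG1 libraries had 135.6, 123.5 and 126.8 CPM in KO and 145.1, 145.3 and 141.5 CPM in WT, so Pygb was lower in EG1 KO (log2 -0.16 ± 0.04). The EG1 call was lost without EG1 KO replicate 2 or 3 (adjusted p = 0.057 and 0.051 by edgeR).

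**Figure D2:**
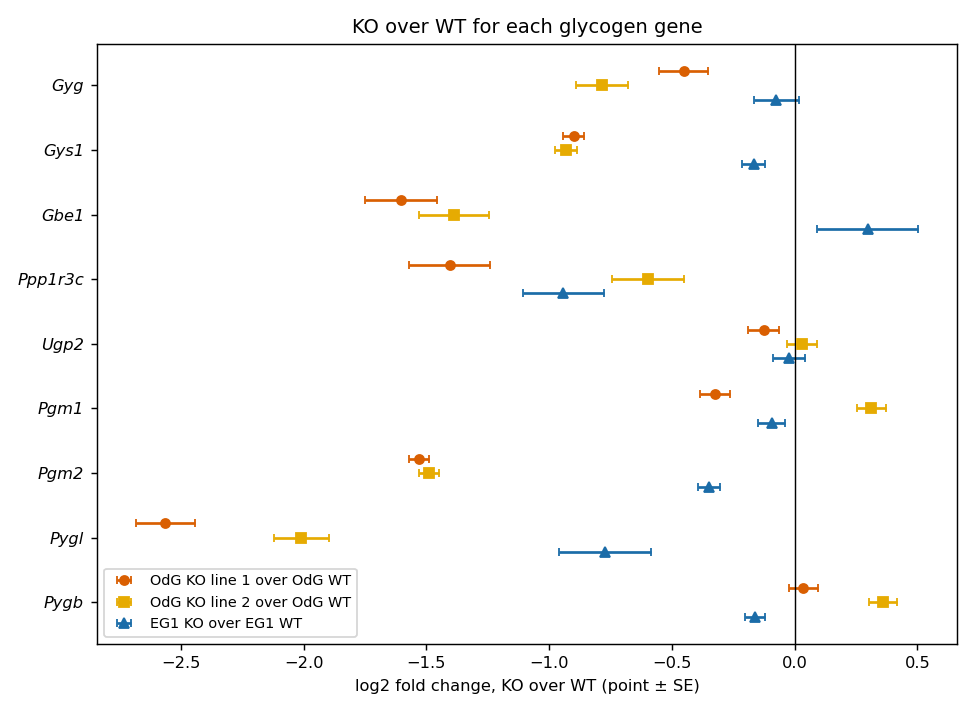
Log2 fold change of KO over WT for each gene, with bars of ± 1 SE, for OdG KO line 1, OdG KO line 2 and EG1 KO. Both OdG lines share the OdG WT libraries. Pygl, Gbe1, Pgm2 and Gys1 sit left of 0 in both OdG lines, Pgm1 lies on opposite sides (log2 -0.32 in line 1 and 0.31 in line 2), and Ppp1r3c in EG1 KO lies between the 2 OdG lines.

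Counted over the list, 6 of the 9 genes fell in OdG KO, 1 rose and 2 did not pass an adjusted p of 0.05 by edgeR, when 59.9% of all 14413 genes tested passed in either direction, 29.4% as higher and 30.5% as lower. The 4 genes past that threshold with a log2 fold change of -1 or lower (Pygl, Pgm2, Gbe1 and Ppp1r3c) compare with 6.30% of all genes. Ppp1r3c sat on that limit, at log2 -1.001, with -1.405 in line 1 and -0.60 in line 2. The KO and WT ranges did not overlap for 6 of 9 genes, against 55.5% of all genes. The median log2 fold change was -0.92 over the list and -0.0098 over all genes. In EG1 KO, 5 of the 9 fell (Gys1, Ppp1r3c, Pgm2, Pygl and Pygb), 0 rose and 4 did not pass, when 7.66% of 14016 genes passed, 3.60% as higher and 4.06% as lower. EG1 ranges did not overlap for 5 of 9 genes, against 25.0% of all genes, and the medians were -0.16 over the list and -0.0013 over all genes. In line 1 alone, 7 of 9 fell (26.1% of all genes did) and 0 rose (26.8% did), 52.8% of all genes passing in all, and ranges did not overlap WT for 8 of 9 genes (75.4% of all genes). In line 2 alone, 6 of 9 fell (29.8%) and 2 rose (30.0%), 59.9% passing in all, and ranges did not overlap for 8 of 9 (79.0%). Summed over the 9 genes, libraries held 6212 and 5513 counts in line 1, 6515 and 6928 in line 2 and 10383 and 10129 in OdG WT, and 6813, 6547 and 6468 in EG1 KO and 7786, 7537 and 8499 in EG1 WT.

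The KO effect was then compared between the parental lines in 1 fit over all 12 libraries. The difference (OdG effect minus EG1 effect) passed the threshold for 6 of the 9 genes, 5 negative and 1 positive, when 39.8% of 14977 genes passed, 19.5% as negative and 20.2% as positive. It was negative, so that the OdG log2 fold change was the lower one, for Gbe1 (log2 -1.80 ± 0.23), Pygl (-1.52 ± 0.21), Pgm2 (-1.17 ± 0.054), Gys1 (-0.76 ± 0.062) and Gyg (-0.55 ± 0.13). It was positive for Pygb (0.35 ± 0.065). Gbe1 and Gyg did not pass in EG1 KO. For Ppp1r3c the difference was -0.07 ± 0.21, with an SE that leaves room for sizeable differences either way. Ugp2 (-0.03 ± 0.086) and Pgm1 (0.08 ± 0.077) did not pass either. Parental line and table cannot be told apart.

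**Figure D3:**
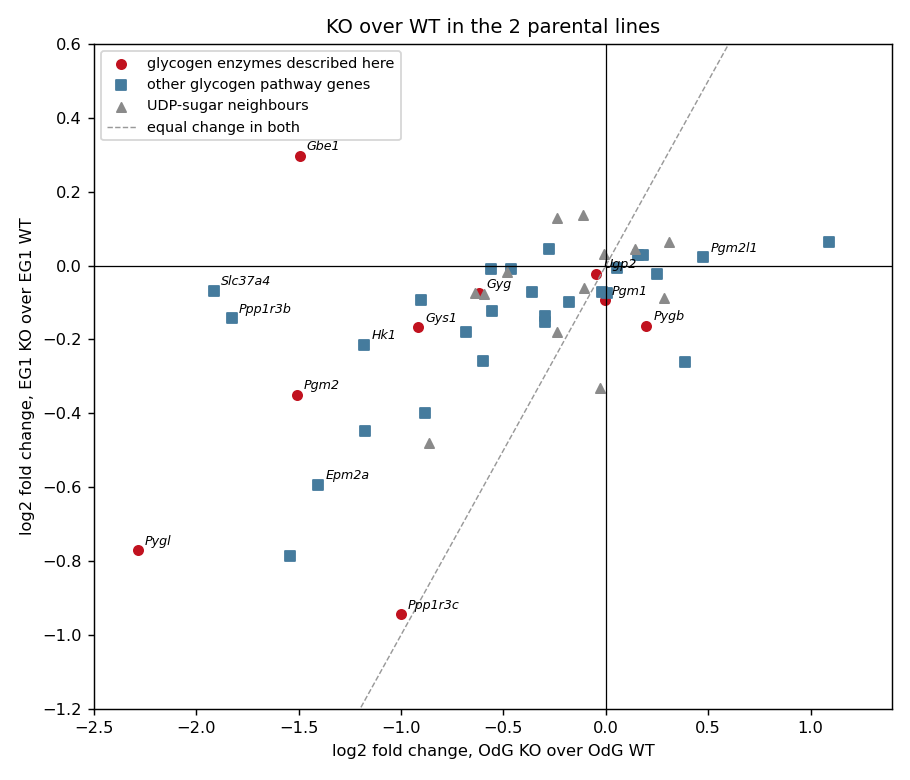
Log2 fold change of KO over WT in OdG (horizontal axis) and in EG1 (vertical axis, on a wider scale) for the 9 genes and 2 further gene lists, each point a gene tested in both tables, with a dashed line at equal change. Ppp1r3c lies near that line, while Pygl, Pgm2, Gys1, Slc37a4, Ppp1r3b and Hk1 lie left of it, and Gbe1 is lower in OdG KO and at log2 0.30 in EG1 KO.

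Scaled together, the 12 libraries show where each group stood, with parent and table confounded. OdG WT was the highest of the 5 groups for Gyg, Gys1, Gbe1, Ppp1r3c, Pgm2 and Pygl, and its range did not overlap the next group's for any of these 6. These genes were listed with their KO over WT values known. The share of all genes with OdG WT highest was not computed, so nothing is read from this count. On that common scale Gys1 averaged 77.6 CPM in line 1, 75.7 in line 2, 145.4 in OdG WT, 72.8 in EG1 KO and 81.7 in EG1 WT. The ranges of line 1 and line 2 overlapped, and so did those of line 2 and EG1 KO. Pgm2 likewise had OdG WT first and EG1 WT next, with 71.2 CPM in line 1, 73 in line 2, 206.4 in OdG WT, 69.9 in EG1 KO and 89 in EG1 WT, and line 2 overlapped line 1, which overlapped EG1 KO. In log2 terms, OdG WT exceeded EG1 WT by 2.65 ± 0.12 for Pygl, 2.47 ± 0.16 for Gbe1, 1.21 ± 0.039 for Pgm2 and 0.83 ± 0.046 for Gys1. OdG KO differed from EG1 WT by 0.35 ± 0.13, 0.97 ± 0.16, -0.30 ± 0.036 and -0.09 ± 0.041 for the same genes. For Ppp1r3c these differences were 0.68 ± 0.14 (OdG WT) and -0.33 ± 0.13 (OdG KO). For Gyg they were 0.18 ± 0.095 and -0.45 ± 0.085, so OdG KO lay further from EG1 WT than OdG WT did. The median absolute difference from EG1 WT over all genes was 0.43 for OdG WT and 0.33 for OdG KO. Ugp2 kept a gap between the parents in both genotypes (0.90 ± 0.056 for OdG KO minus EG1 KO and 0.93 ± 0.065 for OdG WT minus EG1 WT). Pygb was lower in OdG in both (-0.67 ± 0.041 for OdG KO minus EG1 KO and -1.02 ± 0.05 for OdG WT minus EG1 WT).

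Between genes, levels were compared as CPM per kilobase of exon (GENCODE M21). In OdG KO line 1 the order was Pgm2 (24.6), Ugp2 (18.3), Gys1 (16.4), Pygb (15.4), Pgm1 (15.1), Gyg (5.34), Ppp1r3c (1.14), Gbe1 (0.843) and Pygl (0.658). The ranges of Gys1 and Pygb, and of Pygb and Pgm1, overlapped there. In OdG WT it was Pgm2 (71), Gys1 (30.5), Ugp2 (19.9), Pgm1 (18.8), Pygb (15), Gyg (7.31), Pygl (3.88), Ppp1r3c (3.02) and Gbe1 (2.56), with overlap between Ugp2 and Pgm1. In EG1 KO Pygb led with 26.8 ± 1.3 (SD, n = 3), above Pgm2 at 23.7 ± 0.478, and in EG1 WT Pgm2 (30.2 ± 0.181) and Pygb (29.9 ± 0.445) overlapped.

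Within both enzyme pairs the KO shares lay below the WT shares of the same table. Pygl made up 4.07% and 4.13% of the per-kilobase level of Pygl and Pygb together in line 1, 4.57% and 4.93% in line 2 and 20.6% and 20.5% in OdG WT. In EG1 this share was 1.13%, 1.17% and 1.66% in KO and 2.22%, 1.74% and 2.02% in WT. The brain form thus held most of the phosphorylase transcript of this pair in every library. Pgm2 made up 63% and 61.1% of Pgm2 and Pgm1 in line 1, 52.4% and 51.6% in line 2 and 78.4% and 79.7% in OdG WT, and 50.8%, 55% and 53.2% in EG1 KO against 56.9%, 58% and 57.2% in EG1 WT.

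**Figure D4:**
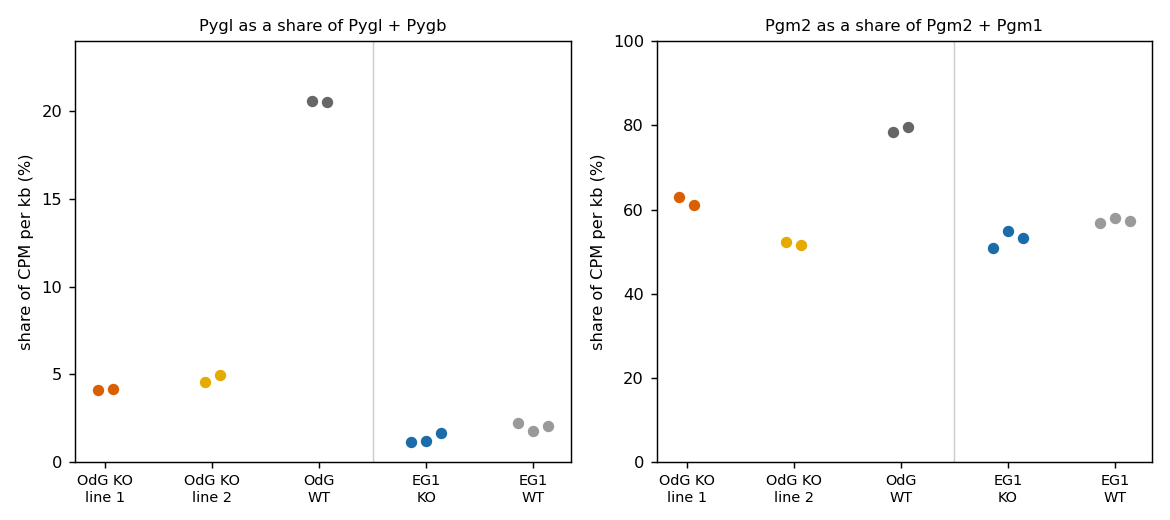
Share of Pygl in the summed CPM per kilobase of Pygl and Pygb (left) and of Pgm2 in that of Pgm2 and Pgm1 (right), in percent, with a point for each library and axes starting at 0. OdG WT has the highest share in both, at 20.5% to 20.6% for Pygl and 78.4% to 79.7% for Pgm2.

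The 2 OdG KO lines were compared directly, with no WT level in the difference, though the WT libraries shared in the filter and the estimate of spread. Line 2 and line 1 differed at 5 of the 9 genes by edgeR's quasi-likelihood test, 4 higher and 1 lower in line 2, when 37.8% of all genes differed, 18.6% as higher and 19.2% as lower. Their ranges did not overlap for 7 of 9 genes, against 70.7% of all genes. Pgm1 was higher in line 2 (log2 0.64 ± 0.061, adjusted p = 2.3e-07, both line 2 libraries above both of line 1). So were Pygb (log2 0.32 ± 0.056, adjusted p = 0.00018), Ppp1r3c (log2 0.81 ± 0.18, adjusted p = 0.0016) and Pygl (log2 0.55 ± 0.15, adjusted p = 0.0076), again in 2 of 2 libraries each. Gyg was lower in line 2 (log2 -0.33 ± 0.11, adjusted p = 0.026). Without line 1 replicate 1 the calls of Pygl and Gyg were lost (adjusted p = 0.085 and 0.073 by edgeR), and likewise without line 2 replicate 2 (adjusted p = 0.1 and 0.19). Gyg also lost its call without line 1 replicate 2 (adjusted p = 0.1) and by DESeq2 (adjusted p = 0.18). Gys1, Pgm2 and Gbe1 did not pass (log2 -0.03 ± 0.047, 0.04 ± 0.045 and 0.22 ± 0.17). Ugp2 was at log2 0.16 ± 0.062 (adjusted p = 0.059) and passed with upper quartile scaling, without a filter on low counts and without line 2 replicate 2 (adjusted p = 0.023, 0.041 and 0.047).

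The rest of the pathway was read from 33 further genes grouped by textbook role. This list and the UDP-sugar list below were drawn up with earlier results of these data known, so their counts and p-values are not independent evidence. Of these, 29 were tested in OdG, where 6 were higher and 18 lower in KO (29.4% and 30.5% of all genes were; median log2 -0.36, against -0.0098 over all genes), and 27 in EG1, where 0 were higher and 2 lower (3.60% and 4.06% of all genes were; median log2 -0.09, against -0.0013). In EG1, 2 of 27 is near the 7.66% of all genes that passed. The pair lower in EG1 KO was Hk1 and the laforin gene Epm2a, named after its values were seen (log2 -0.59 ± 0.17, adjusted p = 0.026 by edgeR, and log2 -1.41 ± 0.2 in OdG KO, adjusted p = 1.1e-05). The EG1 count was 1 by DESeq2, at a threshold of 0.01 and without EG1 WT replicate 1 or 2 or EG1 KO replicate 1 or 2, and in each of these Hk1 kept its call and Epm2a lost it. The liver synthase Gys2, with 3 counts over line 1 and line 2 together and 0 in OdG WT, EG1 KO and EG1 WT, and Ppp1r3a, Ppp1r3d and G6pc were too low to test in both tables, as were Stbd1 and Pgm5 in EG1. Muscle phosphorylase Pygm was lower in OdG KO (2.53 ± 0.277 CPM in line 1, 2.78 ± 0.0374 in line 2 and 5.98 ± 0.562 in OdG WT; SD, n = 2 each; log2 -1.17 ± 0.16, adjusted p = 4.6e-06 by edgeR), and at log2 -0.45 ± 0.2 in EG1 KO (adjusted p = 0.18).

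Ppp1r3b, the hepatic-type subunit that targets protein phosphatase 1 to glycogen, fell in OdG KO to 11.8 ± 0.452 CPM in line 1 and 13 ± 0.881 in line 2, against 44.1 ± 0.0472 in OdG WT (log2 -1.83 ± 0.07, adjusted p = 5.2e-13 by edgeR). In EG1 it was at 6.14 ± 0.41 CPM in KO and 6.76 ± 0.589 in WT (SD, n = 3 each; log2 -0.14 ± 0.13, adjusted p = 0.58). The catalytic subunit gene Ppp1cc rose in OdG KO (log2 0.25 ± 0.032, adjusted p = 3.1e-06). Epm2aip1, which encodes a partner of the glycogen phosphatase laforin, fell (log2 -0.90 ± 0.049, adjusted p = 6.2e-11).

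Gaa, the lysosomal glucosidase that breaks glycogen down outside the phosphorylase route, fell in OdG KO (log2 -0.56 ± 0.044, adjusted p = 5.4e-09 by edgeR). The Gaa call was lost when both KO lines were pooled into 1 group (adjusted p = 0.058). In EG1 KO it stood at log2 -0.01 (adjusted p = 0.93). Other phosphoglucomutase family genes moved in opposite directions in OdG KO. Pgm2l1, a glucose 1,6-bisphosphate synthase, rose (log2 0.47 ± 0.059, adjusted p = 2.3e-06), and Pgm3, of the hexosamine pathway, fell (log2 -0.30 ± 0.039, adjusted p = 3.4e-06).

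Genes for making glucose 6-phosphate and for releasing glucose from it were lower in OdG KO. The hexokinase gene Hk1 stood at 125.5 ± 3.17 CPM in line 1, 121 ± 2.73 in line 2 and 279.1 ± 16.8 in OdG WT (log2 -1.18 ± 0.037, adjusted p = 3.2e-14 by edgeR), and it also fell in EG1 KO (93 ± 2.79 CPM in KO and 108 ± 5.23 in WT; log2 -0.21 ± 0.044, adjusted p = 0.0013). Hk2 fell less (log2 -0.36 ± 0.029 in OdG KO, adjusted p = 7.5e-09; log2 -0.07 ± 0.031 in EG1 KO, adjusted p = 0.17). Slc37a4, the carrier that takes glucose 6-phosphate into the endoplasmic reticulum, was at 4.36 ± 0.0628 CPM in line 1, 4.94 ± 0.949 in line 2 and 17.5 ± 1.24 in OdG WT (log2 -1.92 ± 0.11, adjusted p = 1.9e-10). The phosphatase gene G6pc3 fell to log2 -0.68 ± 0.068 (adjusted p = 1.5e-07). In EG1 KO neither passed (Slc37a4 at log2 -0.07 and G6pc3 at log2 -0.18, adjusted p = 0.85 and 0.26).

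The UDP-sugar list held 13 genes of galactose use, of UDP-glucose use and of the hexosamine pathway. Of these, 3 were higher and 7 lower in OdG KO (median log2 -0.11), when 59.9% of all genes passed. In EG1 KO 0 were higher and 3 lower (median log2 -0.06), when 7.66% passed. The EG1 calls included Galm and Uap1 (log2 -0.18 ± 0.048, adjusted p = 0.015 by edgeR), and Uap1 did not pass by DESeq2 (adjusted p = 0.051). The aldose mutarotase Galm was lower in both, with 22.8 ± 0.917 CPM in line 1, 18.4 ± 0.293 in line 2 and 37.4 ± 3.79 in OdG WT (log2 -0.87 ± 0.073, adjusted p = 1.7e-08 by edgeR), and 15.5 ± 2.26 in EG1 KO and 21.6 ± 1.67 in EG1 WT (log2 -0.48 ± 0.09, adjusted p = 0.00044). Galactokinase Galk1 (log2 -0.64 ± 0.033, adjusted p = 3.3e-11), the hexosamine enzyme Gfpt1 (log2 -0.60 ± 0.04, adjusted p = 8.2e-10) and the O-GlcNAc transferase Ogt (log2 -0.48 ± 0.025, adjusted p = 3.3e-11) fell in OdG KO, and in EG1 KO they did not pass (log2 -0.07, -0.08 and -0.02, adjusted p = 0.4, 0.38 and 0.83). With both OdG KO lines pooled into 1 group, 4 of these 13 genes passed, when 4609 of all 14413 genes did. Gnpnat1, Uap1, Uxs1, Uggt1, Alg5 and Ugdh lost their calls in that setting.

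For each of the 9 genes, the 3 genes with the most similar pattern were sought over the 12 libraries, by Euclidean distance of log2 CPM from the WT mean of each table, among 13630 genes. Those closest to Gys1 were the glycolytic isomerase gene Tpi1 (distance 0.17), Pde4a (0.207) and Notch3 (0.248). Pgm2 was closest to Vwf (0.205), Pde8a (0.209) and the collagen prolyl hydroxylase gene P4ha1 (0.239). Pygl was closest to Phox2a (0.49), P4ha2 (0.682) and the aldolase gene Aldoc (0.738). With a smaller constant added to the counts before taking logs (0.5 in place of 2), Aldoc was no longer among its 3 nearest genes. The nearest to Ppp1r3c were Prrx2 (0.516), Etl4 itself (0.688) and Guca1a (0.791). Those of Gbe1 lay further off (Ddit3 at 0.813, Gm10406 at 0.869 and Rasgrp4 at 0.906). Pygl, Ppp1r3c and Gbe1, with the larger distances, also had the fewest counts of the 9 genes in EG1. The part of count noise in these distances was not tested. Nearest to Gyg were Mllt11 (0.251), Tbc1d4 (0.269) and Sil1 (0.27). Genes close to Ugp2 included Cetn2 (0.176) and Cd2ap (0.179). Pgm1 lay closest to Kit (0.219), Rltpr (0.237) and Caprin2 (0.242), and Pygb to Neo1 (0.221), Mfsd1 (0.226) and Zbtb24 (0.234). These distances describe likeness over libraries that share their WT groups, and carry no test.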

How the data were processed

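Per the labels' protocols, Trizol RNA was made into NEBNext Ultra libraries, and the submitters' processing notes list HISAT2 2.1.0 and featureCounts 1.6.4, as well as CASAVA, DESeq2 and the mm10 build. The sources used here give neither annotation nor strand setting. Raw counts by gene symbol were deposited as 2 tables, for OdG and for EG1. Groups and replicate numbers come from the titles. No pair of replicates was as alike as sampling noise alone would make them (chi-square over its degrees of freedom, 1.84 to 3.86), so none were merged.

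Counts were fitted with edgeR 4.0.16 in R 4.3.3 (filterByExpr, TMM scaling, quasi-likelihood test, 1 mean per group, Benjamini-Hochberg adjustment over all genes of a fit, two-sided, threshold 0.05). OdG KO is the mean of its 2 KO lines on the log scale. The difference between parents is an interaction over all 12 libraries. Each log2 fold change has the SE that its test statistic gives. Exon lengths are unions over GENCODE M21, and promoters and positions are RefSeq's (GRCm38.p6, the mm10 assembly). A symbol that has changed was placed by the 10 table rows on either side.

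The 9 genes and the further lists were chosen with earlier results of these data known. All 9 are described. Of each further list, genes passing in OdG KO or EG1 KO were eligible to be named, at most 12 by adjusted p in OdG KO. Alternatives were RLE size factors, upper quartile scaling, no filter, DESeq2 1.42.0, a threshold of 0.01, a replicate block, each library left out and the OdG KO libraries as a single group. The labels do not say whether a replicate number marks a shared batch, and same-numbered libraries did not deviate together. Some genes that these rules select are not reported here.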

Additional observations from a re-analysis of the deposited data

Results flagged for a closer look

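For 6 of the 9 glycogen genes the difference between the OdG and EG1 effects of KO over WT passed the threshold in the fit over 12 libraries, when 39.8% of all genes did. The genes were chosen with their KO over WT values known, so these differences are a description. The difference (OdG effect minus EG1 effect, log2) was -0.55 for Gyg, -0.76 for Gys1, -1.80 for Gbe1, -1.17 for Pgm2, -1.52 for Pygl and 0.35 for Pygb.

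Among the other glycogen pathway genes named, the same difference passed by edgeR for Slc37a4 (-1.86, adjusted p = 2.8e-09), Ppp1r3b (-1.69, adjusted p = 3e-11), Hk1 (-0.97, adjusted p = 2.8e-14), Epm2aip1 (-0.82, adjusted p = 2e-08), Pygm (-0.73, adjusted p = 0.02), Gaa (-0.56, adjusted p = 1.1e-08), G6pc3 (-0.51, adjusted p = 0.00033), Hk2 (-0.30, adjusted p = 1.8e-06), Ppp1cc (0.27, adjusted p = 2.7e-05) and Pgm2l1 (0.44, adjusted p = 0.00033). Of the UDP-sugar genes it passed for Galk1 (-0.58, adjusted p = 8.3e-09), Gfpt1 (-0.53, adjusted p = 4.4e-08), Ogt (-0.47, adjusted p = 2.9e-10), Galm (-0.39, adjusted p = 0.011), Alg5 (-0.38, adjusted p = 0.0033), Gnpnat1 (0.24, adjusted p = 0.01) and Uxs1 (0.37, adjusted p = 0.003). These genes were named for passing in OdG KO or EG1 KO, and both effects enter this difference. Its p-values are therefore not independent evidence. Of all 29 glycogen pathway genes tested the difference passed for 16, and of all 13 UDP-sugar genes for 7, when 39.8% of all genes passed. Some of the calls named were lost under other settings. Pygm lost its call by DESeq2 (adjusted p = 0.091) and by edgeR without OdG WT replicate 1 (0.095) or EG1 KO replicate 2 (0.082), Galm without OdG WT replicate 2 (0.092) or EG1 KO replicate 3 (0.059), and Gnpnat1 without OdG WT replicate 1 (0.095).

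The effect also differed between the OdG KO lines (line 2 minus line 1, log2) for Ppp1r3c (0.81), Pgm1 (0.64), Pygl (0.55), Pygb (0.32) and Gyg (-0.33). Of all genes, 37.8% differed between these lines. The calls of Pygl and Gyg were lost under some other settings, as given above. Pgm1 was the gene on opposite sides of OdG WT in the 2 lines, at log2 -0.32 ± 0.062 in line 1 and 0.31 ± 0.059 in line 2.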

How the results depend on the processing

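The number of the 9 genes past the threshold stayed within 1.5 times under every alternative that kept all libraries. With each library left out in turn it was 7 to 7 in OdG KO, 7 to 8 in line 1, 8 to 8 in line 2, 6 to 6 for the difference between parents, 3 to 5 in EG1 KO (3 without EG1 WT replicate 1, EG1 KO replicate 2 or EG1 KO replicate 3) and 3 to 5 for line 2 against line 1 (3 without line 1 replicate 1). No call changed direction. At a threshold of 0.01, 534 genes passed in EG1 KO, with 1 other glycogen pathway gene and 1 UDP-sugar gene. With DESeq2, 659 genes passed in EG1 KO, again with 1 and 1, against 1074 by edgeR, and 3230 for line 2 against line 1, where edgeR had 5454. With both OdG KO lines pooled into 1 group, 4609 genes passed in OdG KO, against 8638 with a mean per line, and 4 UDP-sugar genes. The cause was not tested.

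Leaving out a library gave 638 to 1213 genes in EG1 KO, with 638, 672 and 658 without EG1 WT replicates 1, 2 and 3, and 3680 to 3865 for line 2 against line 1. It gave 7791 to 8028 genes in OdG KO, 6068 to 7284 in line 1, 7273 to 8192 in line 2 and 5122 to 5914 for the difference between parents. Other glycogen pathway genes numbered 1 to 2 in EG1 KO and 20 to 24 in OdG KO, and UDP-sugar genes 1 to 4 and 9 to 10.

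Same-numbered replicates did not deviate together (correlations -0.0464 to 0.0376), so the numbers give no pairing. A replicate block left 7 of the 9 genes called in OdG KO, 5 in EG1 KO and 6 for the difference between parents, with 8542, 906 and 5863 genes in all. Depth was 16.1 to 19.7 counts per CPM, so the lowest genes, Gbe1, Ppp1r3c and Pygl in EG1, rest on few counts.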
